A study of Mus musculus with 2 samples.

Results

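The genes described here encode the machinery that brings proteins into mitochondria and keeps them in shape once they are there. They were chosen by name. Probes entered where the array's gene name began with Timm, Tomm, Chchd or Grpel followed by a digit, or was one of a fixed set of names for processing peptidases, assembly factors, chaperones, proteases and prohibitins. The rule itself uses no measured value, although it was written with earlier results of these arrays known, and it gave 56 genes with 91 probes out of 30222 gene names with 39429 probes on the array. Of the 56 genes, 54 were well above background on both arrays through 82 probes. The other members, Tomm20l and Timm8a2, were not well above background on either array, so no difference is given for them.

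Liver RNA was hybridised to 1-colour Agilent mouse arrays. One array carried RNA of wild type liver and the other that of a knockout of Drp1, the GTPase that divides mitochondria and is encoded by Dnm1l, and both came from male C57BL/6J animals. Both groups had been fed a lard-based diet of 24% fat, which supplied 45% of its energy, for 24 weeks from the age of 4 weeks. The series title places the disruption of Drp1 in the liver. The labels name neither the promoter that would drive the deletion nor the deleted part of the gene, and they do not say whether a liver was taken fasted or refed, or whether RNA was pooled.

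With a single array per group, differences could be neither tested nor checked in replicates. A level is the signal divided by the 75th percentile of gene signals on its array, and a difference is a log2 value, knockout minus wild type. Levels of different genes cannot be compared, because probes differ in how brightly they hybridise. Copies of a probe scattered with an SD of 0.11 (wild type) and 0.083 (knockout), which puts an SD of 0.14, called the spot error here, on a difference between the arrays. That error leaves out labelling, hybridisation and the spread between mice. Dnm1l itself stood at 2.03 in the wild type and 1.75 in the knockout, 1.16-fold lower, through a single probe that does not check the knockout label. In bulk liver RNA, fewer cells of a type and less RNA per cell cannot be told apart.

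Nearly all mitochondrial proteins are encoded in the nucleus and made in the cytosol. They enter through the outer membrane translocase TOM, from which barrel proteins go to the assembly complex SAM, cysteine-rich proteins are trapped in the intermembrane space by oxidation, carriers are handed by small Tim chaperones to the TIM22 complex, and proteins with a presequence pass through TIM23 into the matrix, pulled by the Hspa9 motor. In the matrix the presequence is clipped off, chaperonins fold the protein, and ATP-driven proteases remove what does not fold. In hepatocytes, which are rich in mitochondria, this system supplies the enzymes of the urea cycle, fat oxidation and respiration, and an increase of matrix chaperones and proteases is the classical readout of the mitochondrial unfolded protein response.

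The members with the greatest differences rest on few probes, and the central 30 bases of these 60-base probes are shown first, because the values can be judged only against what each probe reads. Positions are those of the array files in build mm9. Whether a probe lies in a coding exon or an untranslated region was not analysed here. Clpx (chr9:65177803-65177862) and Mtx1 (chr3:89013014-89013073) have 1 probe each, and Timm22 has 1 probe that was well above background (chr11:76227851-76227910). Chchd5 has 3, at transcript positions 354 (chr2:128956192-128956251), 649 (chr2:128959195-128959254) and 1242 (chr2:128959788-128959847).
Clpx: tggtcaaaagcctttaagataagaatcgga
Mtx1: gagcagccaaaaatggggcgctgtcctcag
Timm22: taaacagatcaggaggcagtgtgtggactg
Chchd5 at 354: aatgaggcagcagtgggcaactgtgctgaa
Chchd5 at 649: gtattgaaagggagaagagcgatgagagaa
Chchd5 at 1242: gaggccccttctcgttaaataaacattaaa

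As a whole, the import and quality control genes stayed close to the middle of the transcriptome. Of 54 measured members, 1 was at least 1.5-fold higher in the knockout, 4 were at least 1.5-fold lower and 49 lay between. Across all 15401 measured genes, 8.41% were higher by that fold and 13.4% lower. The members' own shares were 1.85% and 7.41%, below this background on each side, with no test of the gap. The higher member was Clpx, and the lower ones were Chchd5, Chchd7, Timm22 and Mtx1. The median difference of the members was -0.09, against -0.11 over all measured genes. Members lay on both sides of the median of all genes, 29 above it and 25 below. The middle 50% of members ran from -0.35 to 0.04, inside the -0.39 to 0.18 of all genes, and 23 members differed from 0 by less than 1 SD of spot error.

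**Figure D1:**
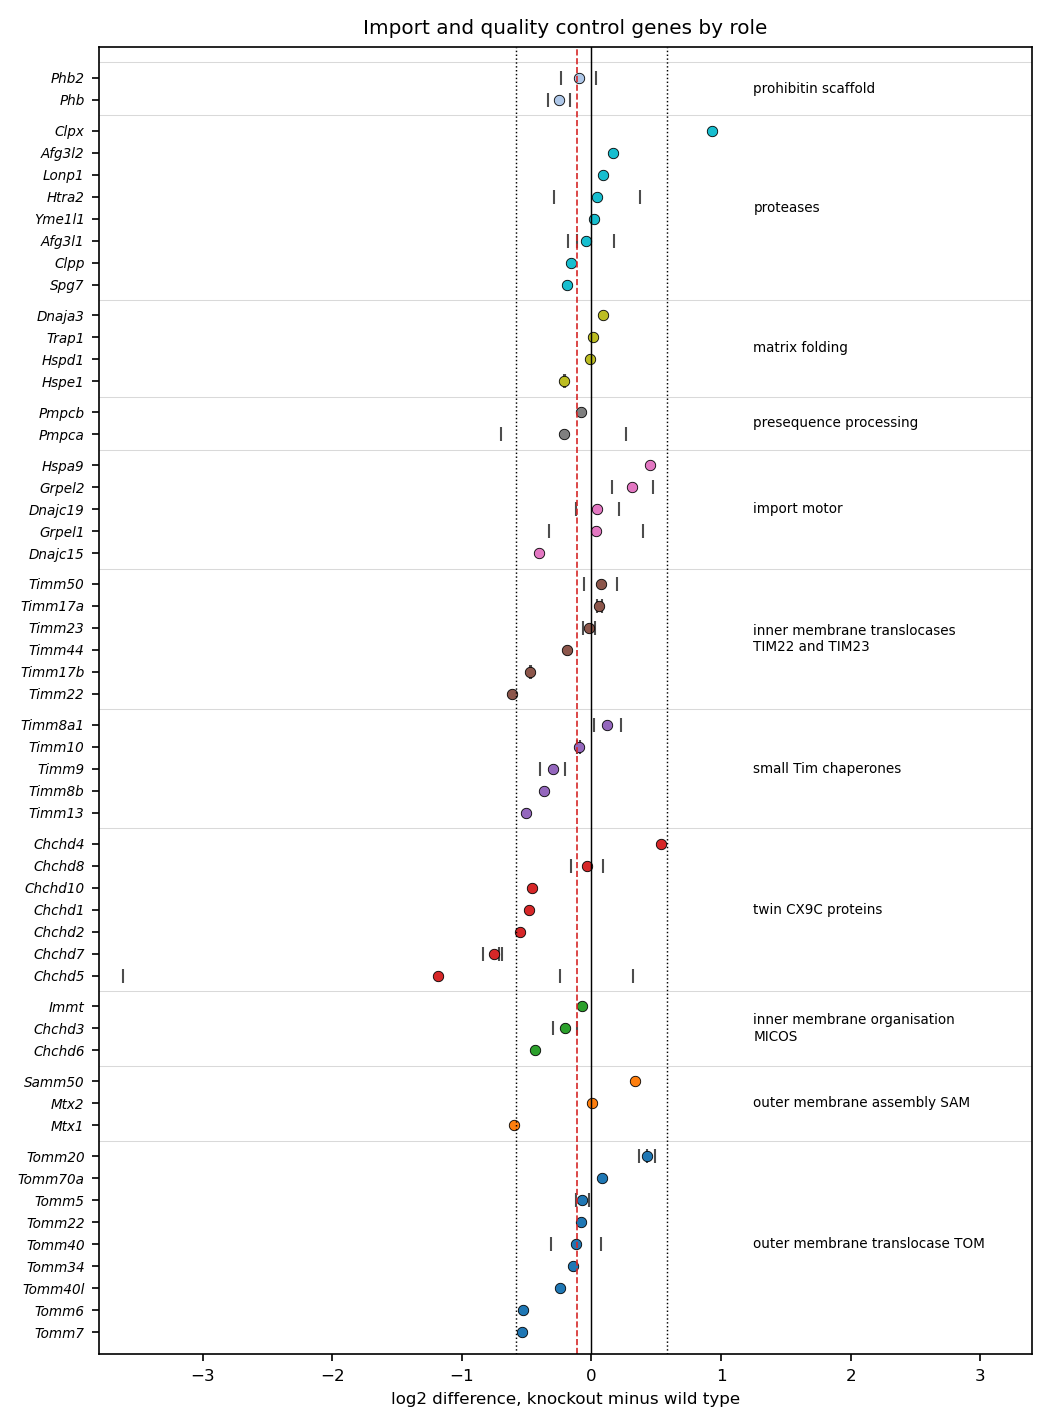
Log2 difference (x axis, knockout minus wild type) of the 54 measured import and quality control genes, grouped by role; points are genes, black ticks the separate probes of a gene with several, the red dashed line the median of all genes (-0.11) and the dotted lines 1.5-fold. Clpx alone lies beyond the right dotted line at 0.93, and the Chchd5 probes spread from -3.62 to 0.32.

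The TOM complex is the common entry gate, with receptors that recognise the incoming protein and small subunits that hold the Tom40 channel together. Of its 10 listed genes, 9 were measured, 0 passed 1.5-fold, and their median difference was -0.12. Tomm20, the presequence receptor, stood at 5.77 in the wild type and 7.77 in the knockout, a difference of 0.43 or 1.35-fold. Its 3 probes gave 0.37, 0.43 and 0.49, so all read higher in the knockout, although a pair of them share 39 bases and are not separate readings. Tomm70a, the receptor for carriers, stood at 2.61 and 2.76, a difference of 0.08, and the receptor Tomm22 at 7.31 and 6.92, a difference of -0.08. Both lay within the spot error.

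The channel subunit Tomm40 stood at 2.98 in the wild type and 2.74 in the knockout, a difference of -0.12, from probes at 0.07 and -0.32. The small subunits differed among themselves. Tomm7 stood at 35.3 and 24.3, a difference of -0.54, and Tomm6 at 40.9 and 28.3, a difference of -0.53. Tomm5, by comparison, stood at 10.3 and 9.79, a difference of -0.07. Tomm6 and Tomm7 each have a further probe that was not well above background on either array, and when such probes are counted their differences turn to 0.46 and 0.04. Tomm34, a cytosolic cochaperone, differed by -0.15 and the channel paralogue Tomm40l by -0.24.

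The SAM complex inserts barrel proteins into the outer membrane, and its 3 genes spread widely around a median of 0.0038. Samm50, its barrel-shaped core, stood at 5.33 in the wild type and 6.72 in the knockout, a difference of 0.34 or 1.26-fold. Mtx1, a metaxin on its cytosolic face, stood at 16.1 and 10.6, a difference of -0.60 or 1.51-fold lower, just past the fold used here. Its partner Mtx2 stood at 5.80 and 5.82. The complex therefore had 1 subunit higher, 1 lower and 1 equal within the spot error, each from a single array per group. Mtx1 fell short of 1.5-fold under 6 of the 10 alternative settings. The others, which filter or summarise probes, could only repeat the main value of its single probe.

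MICOS shapes the inner membrane at the cristae and touches SAM. Its 3 members had a median of -0.20 and 0 passed 1.5-fold. Immt, the mitofilin core, stood at 4.90 in the wild type and 4.64 in the knockout, a difference of -0.08. Chchd3 stood at 3.38 and 2.93, a difference of -0.20, and Chchd6 at 1.33 and 0.983, a difference of -0.44. Chchd6 kept its sign under every alternative except scaling to spike-in spots.

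Twin CX9C proteins carry paired cysteines and are caught in the intermembrane space by Chchd4, which oxidises them. This group had a median of -0.48, with 0 of 7 at least 1.5-fold higher and 2 lower, beside 8.41% and 13.4% of all measured genes. The lower ones were Chchd7 and Chchd5, and Chchd5 passed that fold through 1 of its 3 probes. At the main scaling the oxidase and the other genes of the group lay on opposite sides of 0. Chchd4 stood at 2.20 in the wild type and 3.20 in the knockout, a difference of 0.54 or 1.45-fold. The other 6 members were all below 0. Of these, Chchd8 differed by less than the spot error, and Chchd8 and Chchd10 kept that sign under 5 and 6 of 10 alternatives. Loess normalization, which levels differences across the range of brightness, gave the group a median of -0.11 and placed Chchd4 past 1.5-fold. Quantile normalization gave the group -0.067, beside -0.095 for MICOS and -0.082 for the small Tim chaperones.

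Chchd2, which acts at the respiratory chain and in the nucleus, stood at 382 in the wild type and 260 in the knockout, a difference of -0.55 or 1.47-fold lower. Its paralogue Chchd10, a gene mutated in motor neuron disease, stood at 532 and 387, a difference of -0.46. Chchd1, a subunit of the mitochondrial ribosome, stood at 28.9 and 20.7, a difference of -0.48. For these bright probes the size depended on the scaling. Under the alternatives other than spike-in scaling, Chchd2 reached as near to 0 as -0.07, Chchd1 lay at -0.22 or lower and Chchd10 turned to 0.17. Chchd8, now named Coa4 and needed to assemble complex IV, differed by -0.04.

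Chchd7, the homologue of a yeast factor for cytochrome oxidase, stood at 1.98 in the wild type and 1.18 in the knockout, a difference of -0.75 or 1.68-fold lower. Its 3 measured probes gave -0.69, -0.84 and -0.71, so they lay within 0.15 of each other. It was at least 1.5-fold lower under 9 of 10 alternatives, more than Chchd5, Timm22 or Mtx1.

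Chchd5 had the greatest difference of all members, 2.27 in the wild type and 0.999 in the knockout, or -1.18 (2.27-fold lower), but its probes went apart. The probe at position 354 read 3.33 in the wild type and 2.81 in the knockout, a difference of -0.24. The one at 649 read 2.83 and 0.230, a difference of -3.62 or 12.3-fold lower. The one at 1242 read 1.24 and 1.54, a difference of 0.32 in the other direction. The spread of 3.94 between them was the widest of the 3348 genes with several measured probes, whose median spread was 0.27. The probes at 649 and 1242 lie 593 bases apart in the transcript and in the genome alike, so the array's coordinates place no intron between them. With the median of a gene's probes in place of their mean, a choice made after seeing these values, Chchd5 differed by -0.24.

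**Figure D2:**
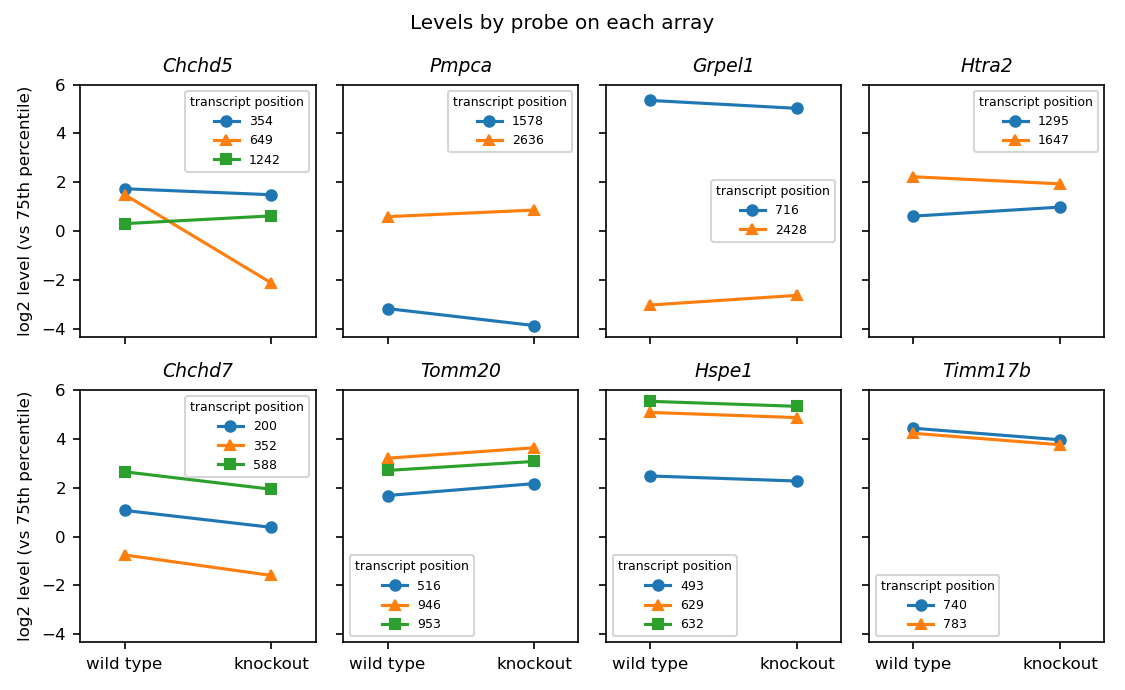
Level of single probes on the wild type and knockout arrays (log2 multiples of the array's 75th percentile) for members whose probes bear on a result; each line joins the readings of 1 probe. The Chchd5 probe at transcript position 649 reads 1.499 in the wild type and -2.12 in the knockout, while its neighbours differ by -0.24 and 0.32, and the Chchd7 probes run in parallel.

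Small Tim chaperones escort hydrophobic carriers across the intermembrane space as hexameric rings. Of 6 listed genes 5 were measured, with a median of -0.30 and 0 past 1.5-fold. The chaperones of the Tim8 and Tim13 ring differed among themselves. Timm13 stood at 40.4 in the wild type and 28.4 in the knockout, a difference of -0.51, and Timm8b at 41.9 and 32.5, a difference of -0.37. Timm8a1 stood at 3.78 and 4.12, a difference of 0.12. In the ring of Timm9 and Timm10, which serves most carriers, Timm9 stood at 2.30 and 1.87, a difference of -0.30, and Timm10 at 10.9 and 10.1, a difference of -0.10. Timm9, Timm8b and Timm13 were below 0 under every alternative except spike-in scaling, and the median of the group was -0.08 after loess normalization.

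The inner membrane translocases had a median of -0.10, which became 0.06 after loess normalization. Timm22, the channel that inserts carriers, stood at 3.06 in the wild type and 2.00 in the knockout, a difference of -0.61 or 1.53-fold lower. It was past 1.5-fold under 5 of 10 alternatives and below 0 under 9. With 1 measured probe, the stricter filter and both probe summaries among these could only repeat the main value. In the TIM23 complex the channel Timm23 stood at 13.6 and 13.4, a difference of -0.02, and the presequence receptor Timm50 at 2.12 and 2.22, a difference of 0.07. Timm44, which tethers the motor to the channel, stood at 6.46 and 5.68, a difference of -0.19. The alternative channel partners lay apart from each other. Timm17a stood at 7.82 and 8.16, a difference of 0.06, and Timm17b at 20.1 and 14.5, a difference of -0.47. Both Timm17b probes gave about that value, -0.48 and -0.47, but the files place 1 of them on chromosome X and the other on chromosome 16.

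The import motor had a median of 0.05 and 0 of 5 members past 1.5-fold. Hspa9, the mitochondrial Hsp70 that drives import, stood at 17.97 in the wild type and 24.6 in the knockout, a difference of 0.45 or 1.37-fold. Grpel2, a nucleotide exchange factor of that chaperone, stood at 0.919 and 1.14, a difference of 0.32, with both probes above 0 at 0.16 and 0.47. Both genes were higher in the knockout under all alternatives tried. Grpel1, its paralogue, stood at 2.24 and 2.30, a difference of 0.04 that averages disagreeing probes. Its probe in 10 copies gave -0.32, at levels of 40.7 in the wild type and 32.5 in the knockout. The other, far dimmer at 0.123 and 0.162, gave 0.40. Grpel1 differed by -0.32 with the brightest probe or the stricter filter. Of the J proteins that stimulate Hspa9, Dnajc19 stood at 10.9 and 11.2, a difference of 0.05, and Dnajc15 at 19.0 and 14.3, a difference of -0.41.

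Both subunits of the presequence peptidase were within 1.5-fold. Pmpcb, the catalytic subunit, stood at 15.7 in the wild type and 14.8 in the knockout, a difference of -0.08. Pmpca, its partner, stood at 0.410 and 0.354, a difference of -0.21. The Pmpca value again averages opposed probes. One designed on an Ensembl transcript was dim, at 0.111 in the wild type and 0.0688 in the knockout, and gave -0.69. One on the RefSeq transcript, at 1.51 and 1.82, gave 0.27. The sign of the gene changes with the setting, and the stricter filter, which drops the dim probe, gave 0.27.

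The folding chaperones of the matrix, which mark the mitochondrial unfolded protein response, had a median of 0.0021 with 0 of 4 past 1.5-fold. Hspd1, Trap1 and Dnaja3 lay within the spot error and Hspe1 beyond it. Hspd1, the chaperonin Hsp60, stood at 46.6 in the wild type and 46.4 in the knockout, a difference of -0.0084. Hspe1, its lid Hsp10, stood at 20.6 and 17.8, a difference of -0.21, and its 3 probes all gave -0.21. A pair of these probes share 45 bases and are not separate readings. Trap1, the mitochondrial Hsp90, stood at 8.08 and 8.15, a difference of 0.01, and Dnaja3, an Hsp40, at 15.3 and 16.3, a difference of 0.09. After loess normalization the median of the group was 0.25, and Hspd1 reached 0.30 at most under the alternatives other than spike-in scaling.

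Hspd1 and Hspe1 are transcribed away from each other from a shared promoter, and the sequence between their starts shows what they have in common. RefSeq places the starts at 55087932 and 55088148 on chromosome 1 of GRCm38.p6. The 215 bases between them, chr1:55087933-55088147 on the plus strand, are printed with a heat shock element in capitals, which is at least 3 alternating units of NTTCN and NGAAN.
Hspd1-Hspe1: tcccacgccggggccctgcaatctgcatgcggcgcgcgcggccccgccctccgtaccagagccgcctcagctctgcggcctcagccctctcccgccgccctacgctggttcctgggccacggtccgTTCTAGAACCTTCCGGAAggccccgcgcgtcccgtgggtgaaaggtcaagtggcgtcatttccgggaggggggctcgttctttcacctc
That element occurs on either strand in 0.603% of 32851 promoter windows of 300 bases, and among members in the windows of Hspd1, Hspe1 and Timm9. It overlaps a match of CCGGAAG here. Neither gene was past 1.5-fold.

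The proteases had a median of 0.03, with 1 of 8 at least 1.5-fold higher and 0 lower, beside 8.41% and 13.4% of all measured genes. Clpx, the ATPase that unfolds substrates for the Clpp peptidase, stood at 7.59 in the wild type and 14.5 in the knockout, a difference of 0.93 or 1.91-fold. Clpp, the peptidase itself, stood at 4.29 and 3.86, a difference of -0.16, so the paired subunits lay on opposite sides of 0. Clpx was at least 1.5-fold higher under all 10 alternatives, at 0.93 to 1.15 apart from spike-in scaling, while Clpp was below 0 in 9 of them. Each of these genes has 1 probe, so the probe filters and probe summaries among the alternatives could only repeat the main value. No other protease came near that fold.

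Lonp1, the main protease for oxidised matrix proteins, stood at 28.9 in the wild type and 30.6 in the knockout, a difference of 0.09. Among the membrane-bound AAA proteases, Afg3l2 stood at 2.40 and 2.69, a difference of 0.16, Spg7 (paraplegin) at 15.0 and 13.2, a difference of -0.19, and Afg3l1 differed by -0.04. None of these was more than 0.20 from 0. Yme1l1, which faces the intermembrane space, stood at 0.237 and 0.241, a difference of 0.02. Htra2, a serine protease of that space, stood at 2.68 and 2.75, a difference of 0.04 from probes at 0.37 and -0.29. The prohibitins Phb and Phb2, which form a ring scaffold around these proteases, stood at 11.5 and 9.72 and at 16.3 and 15.2, differences of -0.25 and -0.10.

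The promoter of Clpx is printed because this gene had the only difference above 1.5-fold on the higher side. The 250 bases before its RefSeq start, chr9:65294010-65294259 of GRCm38.p6 on the plus strand, hold in capitals a match of GCGCATGCG, the core bound by nuclear respiratory factor 1, read from the other strand.
Clpx: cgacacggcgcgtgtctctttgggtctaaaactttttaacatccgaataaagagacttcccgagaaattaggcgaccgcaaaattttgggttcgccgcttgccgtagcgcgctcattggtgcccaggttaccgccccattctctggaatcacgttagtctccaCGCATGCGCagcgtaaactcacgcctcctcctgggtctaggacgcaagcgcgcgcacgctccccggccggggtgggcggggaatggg
Motifs were searched on both strands of 51 windows, which covered 48 members. GCGCATGCG occurred for Clpx and Timm13, and in 1.75% of all windows. TGATGNAA, the composite element of Atf4 and Chop, occurred for Chchd10 and Chchd8, and in 3.97% of all windows. The cAMP response element TGACGTCA occurred for Trap1, and in 1.79% of all windows.

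CCGGAAG, the core bound by Ets factors, was the common motif of the group. It occurred in 23 of 51 member windows (45.1%), against 8.86% of all windows and 11.6% of those of protein-coding genes. The 22 members that hold it include Hspd1, Hspe1, Chchd5, Mtx1 and Tomm22. The 21 measured members with a match had a median difference of -0.08 and the 25 without one -0.12. These are letters in a window and not binding sites.

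Level on the array moves with these differences. When the measured genes were divided by level into 4 groups of equal size, 32 members fell into the brightest and 19 into the next. The median of all genes was -0.25 in the brightest group and -0.06 in the next. Members in them had medians of -0.09 and -0.04. The lower readings of bright members such as Tomm7, Tomm6, Timm13, Chchd2 and Chchd10 stand beside this shift of bright genes in the same direction, and its part in them was not tested.

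**Figure D3:**
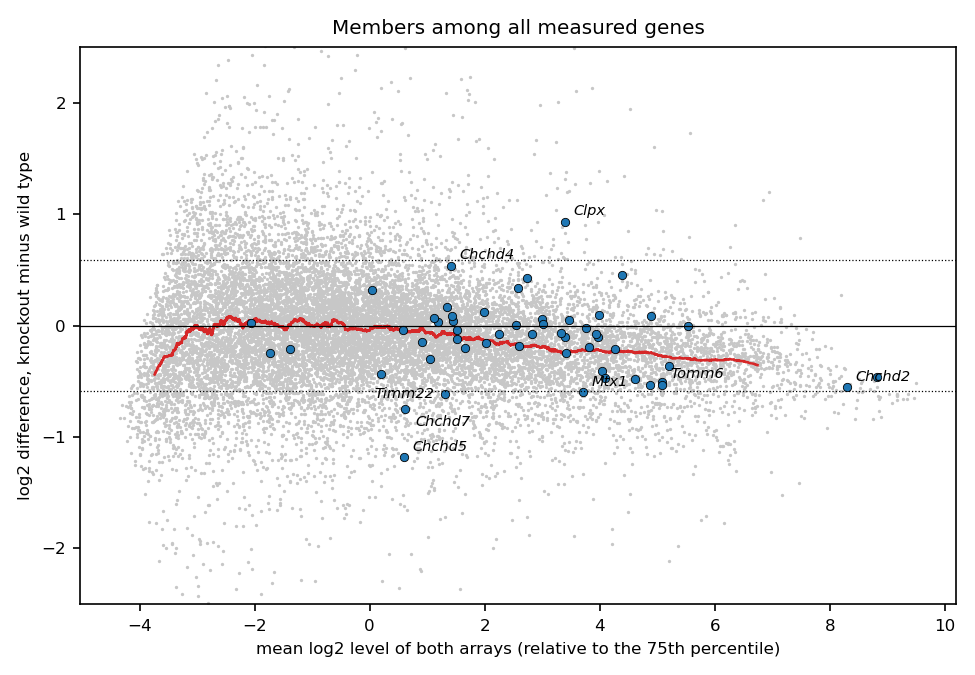
Log2 difference (y axis) against mean log2 level (x axis) of all measured genes in grey and of import and quality control genes in colour; the red line is a running median, and 72 genes beyond 2.5 on either side are not drawn. The red line dips for bright genes, where 32 of 54 members lie.

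Other mitochondrial genes give a reference for this spread, although such lists cannot be tested with 1 array per group and had been seen in earlier work on these arrays. All 37 measured Nduf genes, which are named after complex I, were below 0, with a median of -0.50. By 1.5-fold or more, 0 were higher and 9 lower. The 76 measured Mrpl and Mrps genes of the mitochondrial ribosome had a median of -0.28, with 0 higher and 6 lower. Both lists are given at the main scaling only, at which the brightest group of all genes had a median of -0.25. They were not matched to the members by level, and the part of level and scaling in these gaps was not tested. Of the import and quality control genes 35 of 54 (64.8%) were below 0, and their median was -0.09. Across all 15401 measured genes, 60.1% were below 0, 8.41% were at least 1.5-fold higher and 13.4% lower.

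A list of 25 further genes of import and quality control, not covered by the naming rule, was examined beside them. All were measured, 1 was at least 1.5-fold higher and 1 lower, and their median was -0.13. Across all measured genes, 8.41% were higher and 13.4% lower by that fold, and the median was -0.11. Atf5, a transcription factor of the mitochondrial unfolded protein response, stood at 136 in the wild type and 234 in the knockout, a difference of 0.79 or 1.73-fold. Romo1, a small inner membrane protein linked to TIM23, stood at 41.5 and 27.3, a difference of -0.61 or 1.52-fold lower. These were also the extremes of the list. Oma1, the stress-activated inner membrane protease, stood at 0.351 and 0.490, a difference of 0.48. Ubl5, Clpb, Minos1 and Pam16 lay between -0.57 and -0.41.

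Cell markers also differed between the arrays. All 6 hepatocyte markers were measured, with a summed level of 2421 in the wild type and 1667 in the knockout, 1 of them at least 1.5-fold higher and 3 lower. Across all measured genes, 8.41% were higher by that fold and 13.4% lower. The higher marker was Cps1, at 7.86 in the wild type and 11.9 in the knockout. The lower ones, Ttr, Tf and Cyp2e1, had bright probes, at 313, 584 and 471 in the wild type. Bright genes as a whole shifted downwards at this scaling, and the part of that shift was not tested. Summed levels of macrophage markers were 26.9 and 37.9 (3 of 6 higher, 0 lower), of stellate cell markers 46.2 and 67.6 (4 of 5 higher, 0 lower), and of endothelial markers 2.23 and 2.62 (2 of 4 higher, 0 lower). For the bile duct they were 0.494 and 1.08, with 2 of 3 measured markers higher, Krt7 above background in the knockout alone and Epcam not well above background. Single bright probes carry such sums, since probes of different genes are added. Marco stood at 5.33 in the wild type and 16.7 in the knockout, while Clec4f and Csf1r differed by -0.16 and -0.0016. Dcn, the brightest stellate cell probe, stood at 44.6 and 63.0, short of 1.5-fold. Lymphocyte markers went both ways, with sums of 2.39 and 1.78 that rest on Cd3e, at 2.10 and 1.32. Cd3d was 1.98-fold higher, Cd79a differed by 0.15, and Ms4a1 was above background in the knockout alone. Markers of skeletal muscle, and the pancreas markers Ctrb1 and Cela2a, were brighter on the wild type array. All 6 skeletal muscle markers passed the background there and on the other array 0 did, with sums of 7.13 and 0.106. Exocrine pancreas markers summed to 1.07 and 0.532, with Ctrb1 lower and Cela2a above background in the wild type alone. The further pancreas marker Cpa1, at 0.0148 in the wild type and 0.0322 in the knockout, was not well above background on either array. The adipocyte genes Adipoq and Plin1 were not well above background, and Fabp4 stood at 2.43 and 2.45. The part of these cells in the differences of the import genes was not tested.

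Where several probes read the same member, they were mostly close. Of 23 such members, 19 had probes within 0.5 of each other and 12 had all probes on one side of 0. Over 33 pairs of probes of the same member the median gap was 0.18, and 14 gaps were under the spot error of a difference. The members with wider gaps and opposed signs were Chchd5, Pmpca, Grpel1 and Htra2, with ranges of 3.94, 0.96, 0.72 and 0.66. Single-probe members such as Clpx, Mtx1, Chchd4 and Hspa9 have no such comparison.

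The direction of small differences depended on the scaling. Under the 9 alternatives other than spike-in scaling, 13 of 19 higher members stayed higher and 18 of 35 lower members stayed lower. The medians of the inner membrane translocases, the import motor, the presequence peptidase, the proteases and the prohibitins changed sign under at least 1 of these alternatives, and those of the other roles did not. The stable higher ones included Clpx, Chchd4, Hspa9, Tomm20, Samm50 and Grpel2, and the stable lower ones included Chchd7, Timm22, Mtx1, Chchd6 and Timm17b. For members with 1 probe, such as Clpx, Chchd4 and Mtx1, probe filters and summaries could not change the value. Under loess normalization, quantile normalization and in the deposited value table, 4 members were at least 1.5-fold higher and 2 lower. Across all measured genes, 8.49% to 9.77% were higher and 9.53% to 12.0% lower under these settings. The higher members were then Clpx, Chchd4, Hspa9 and Tomm20, and the lower ones Chchd7 and Chchd5. Sorted values of the deposited columns differ by at most 0.042%, as after quantile normalization, so these settings are not separate checks of each other. Scaling to the spike-in spots, with 7 probes, added 0.78 to every gene.

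**Figure D4:**
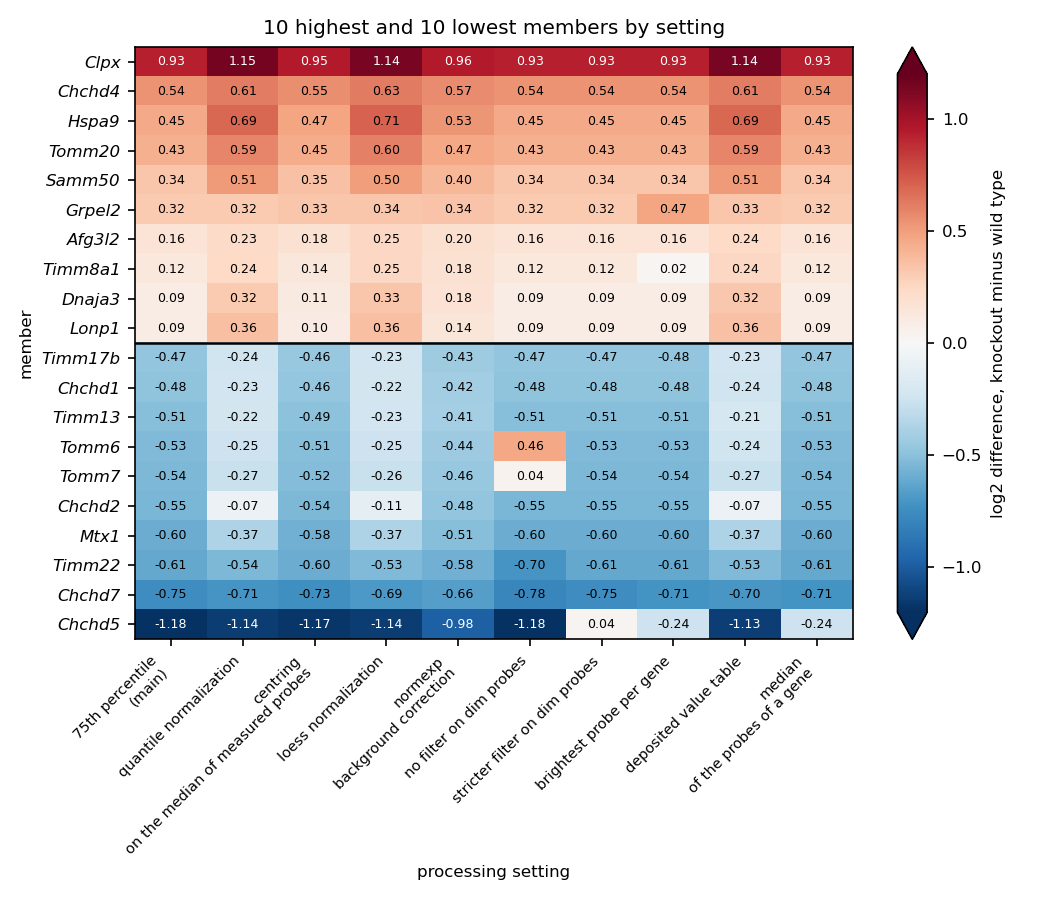
Log2 difference (knockout minus wild type) of the members with the greatest differences under each processing setting except spike-in scaling, which is not drawn. Clpx stays beyond 1.5-fold under every setting drawn, while Chchd5 ranges from -1.18 to 0.036. Probe filters and probe summaries repeat the main value of Clpx, which has 1 probe.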

How the data were processed

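The deposited scanner files hold 1 array each, with linear intensities that the authors' scanner program had already background-corrected, per the file headers. Agilent Feature Extraction 9.5.1.1 is named in the submitters' processing notes and 10.7.1.1 in the file headers, which give build mm9. The deposited value table holds linear intensities with a median of 45.9 in both columns and ranks like the scanner values (Spearman 0.9999 and 1.00, 39429 probes), so its direction is known. Its columns hold nearly the same sorted values, with gaps of at most 0.042%, as quantile normalization would leave them.

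Each array had 43020 gene spots beside 1377 controls. Outlier spots (183 and 190) were left out and 0 were saturated. Signals were divided by the array's 75th percentile, log2-transformed and averaged over copies of a probe. A probe counted as measured when 50% or more of the spots kept for it were well above background on both arrays, and a gene is the mean of its measured probes. The share of probes above background was 50.5% (wild type) and 57.1% (knockout). Spot error came from 241 probes with several spots. Precision is limited by the number of arrays.

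The members and lists were chosen with earlier results of these data known. Named in full were members past 1.5-fold, the 10 greatest differences in each direction, members with opposed probes at least 0.5 apart, and the extremes of each role. From the further list, Oma1, Ubl5, Clpb, Minos1 and Pam16 were named after their values were seen. RefSeq tables of GRCm38.p6 named all 56 members and gave the promoter windows (250 bases before to 50 after a start). Alternatives used limma 3.58.1 in R 4.3.3 and Python 3.11.15: quantile, loess (span 0.3), normexp (offset 50), median centring, spike-in scaling, other probe filters and summaries, and a 2-fold threshold. Only the median of a gene's probes was added after seeing the data. The counting was tested on simulated data.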

Additional observations from a re-analysis of the deposited data

How the results depend on the processing

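No paired analysis was possible because each group held 1 array, and for the same reason no replicate could be left out. Of 54 members, 1 was higher and 4 were lower by 1.5-fold. Counts became 4 and 2 under quantile normalization, where 8.49% of all measured genes were higher and 12.0% lower. Loess normalization also gave 4 and 2 (all genes 9.77% and 9.53%), as did the deposited table (8.82% and 11.4%). Spike-in scaling gave 34 and 0, where 58.0% of all measured genes were higher and 1.36% lower. At 2-fold the counts were 0 and 1 (Chchd5). Normexp correction left 2 lower, beside 9.55% of all measured genes. The deposited table and quantile normalization are nearly the same setting, because the deposited columns hold nearly equal sorted values. The members' median of -0.09 became 0.057 under quantile normalization, 0.062 in the deposited table, 0.050 under loess normalization and 0.69 under spike-in scaling. Its distance from the median of all genes, 0.02, became 0.22 with no filter on dim probes, where the median of all genes was -0.31. Of 320 values of 32 named members under alternatives, 215 moved by less than the spot error, 101 moved by more, and 4 were sign changes of members past 1.5-fold. These were Chchd5 at 0.036 under the stricter filter, which drops its probe at 649, and, under spike-in scaling, Chchd7 at 0.030, Mtx1 at 0.18 and Timm22 at 0.16. Apart from that removed probe and the shift that spike-in scaling adds to every gene, the cause was not tested. The 215 include repeats of the main value for members with 1 probe, which probe filters and summaries cannot change. Brightness limits what can be read from Yme1l1, Pmpca and Tomm40l, the dimmest measured members.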
